A study of Mus musculus with 9 samples.

Results

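The genes of the NADPH oxidases were followed in mouse liver through Cybb, Cyba, Ncf1, Ncf4, Nox4 and Hvcn1. These 6 genes were taken by name from the 16755 genes of the deposited table. The first group of mice was Scd2f/f, with both alleles of Scd2 floxed but no Cre recombinase, and is labelled untreated. The second group was Scd2f/f given diethyl nitrosamine (DEN), a hepatic carcinogen, injected when 2 weeks old at a dose of 10 mg/kg, and a Western alcohol diet (WAD) that by the labels began at 6 weeks and lasted 4 months. The third group was Scd2f/f;Col1a1-Cre (Scd2f/f;CC) with the same DEN and WAD, in which Scd2 is deleted in cells where the Col1a1 promoter is active, in liver mainly activated hepatic stellate cells (aHSC) and portal fibroblasts. All mice carried floxed Scd2, on a background given as C57BL/6 by the labels and as C57BL/6J in the paper's methods, and, per the paper's methods, the treated mice were male. Each group held 3 samples. The tissue is liver by the labels and mostly tumor-adjacent liver (TAL) by the paper, which gives a longer course of WAD. The treatment field of the untreated samples repeats the DEN text, and their treatment label reads untreated, which was followed here.

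Values are the authors' group means of upper quartile normalized read counts, 1 value per gene and group. Values of individual mice and the authors' own tests were not used, so no spread between mice or test is given, and every difference is a description of 3 group means. The depth of each sample is unknown. The hepatocyte genes Alb, which encodes albumin, and Ttr, which encodes transthyretin, had means of at least 20900 and 1500 in every group. Scd2, the targeted gene, had an authors' mean of 2.46 in untreated Scd2f/f liver, 6.47 in treated Scd2f/f TAL and 1.87 in treated Scd2f/f;CC TAL. Col1a1, whose promoter drives the Cre, had means of 4.69, 19.6 and 4.51 in the same order.

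NADPH oxidases carry electrons from NADPH across a membrane to oxygen and so make superoxide or hydrogen peroxide. The phagocyte oxidase is built on NOX2, the catalytic subunit encoded by Cybb, with the membrane partner p22phox from Cyba. It stays idle until cytosolic subunits, among them the organizer p47phox from Ncf1 and p40phox from Ncf4, join it with the GTPase Rac. Hvcn1 encodes a voltage-gated proton channel that balances the charge moved by the oxidase. NOX4 also needs p22phox but not the cytosolic subunits, releases mainly hydrogen peroxide, and is found in hepatocytes and stellate cells, whereas NOX2 is best known from macrophages and neutrophils.

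The first comparison, treated against untreated Scd2f/f liver, addresses the effect of DEN with WAD. All 4 members of the phagocyte oxidase, Cybb, Cyba, Ncf1 and Ncf4, had higher means in treated Scd2f/f TAL, from 3.34-fold for Ncf1 to 6.11-fold for Cybb, whereas Nox4 was at 0.893 of its untreated mean. Hvcn1 was 1.82-fold higher. Of the 6 genes, 4 passed the filter of a mean of at least 1 over the 2 groups, and 3 of these, Cybb, Cyba and Ncf1, were at least 2-fold higher. In the same comparison 6.38% of the 11797 genes that passed were at least 2-fold higher, and 3.02% were at least 2-fold lower. Ncf4, at 4.79-fold, and Hvcn1 had means too low for the filter. Without the filter, 4 of the 6 genes were at least 2-fold higher and none was 2-fold lower, where 9.37% of all 16755 genes were higher and 4.69% lower. At a limit of 1.5-fold with the filter the count was again 3, where 12.8% of the genes that passed were higher and 8.82% lower. With a filter of a mean of at least 5, Cybb and Nox4 passed and Cybb alone was 2-fold higher, where 3.38% of 7840 genes were. The median log2 quotient of the 6 genes was 2.00, and that of all genes that passed was 0.03. All-gene counts were 753 higher and 356 lower, and these became 1231 and 218 when each group was scaled to the same sum, which adds 0.32 to every log2 quotient.

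**Figure D1:**
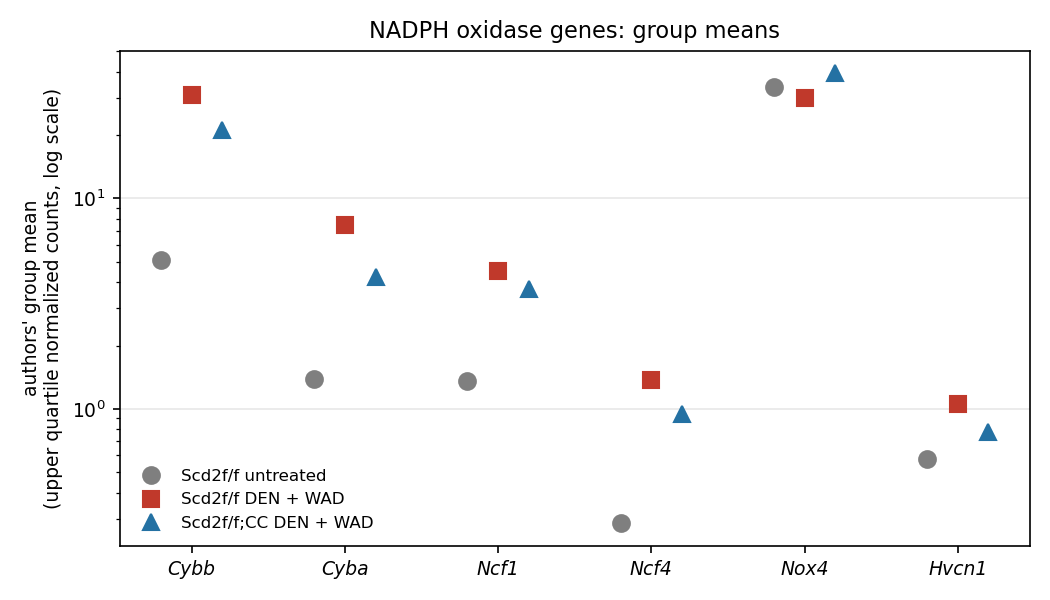
Authors' group mean (upper quartile normalized counts, log axis) of each NADPH oxidase gene in untreated Scd2f/f liver (grey circles), treated Scd2f/f TAL (red squares) and treated Scd2f/f;CC TAL (blue triangles), 1 value per group with no error bars. Cybb stood at 5.11, 31.2 and 21.1, while Nox4 stood at 33.8, 30.2 and 39.4.

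Cybb is a minus-strand gene of chromosome X, spanning 9435252 to 9487772 in mm10. Its authors' mean was 5.11 in untreated Scd2f/f liver, 31.2 in treated Scd2f/f TAL and 21.1 in treated Scd2f/f;CC TAL. The lowest value was that of the untreated liver, and the log2 quotient of 2.61 for DEN and WAD was higher than that of 99.6% of the genes that passed the filter. Cyba, the membrane partner of both NOX2 and NOX4, spans 122424776 to 122432931 on chromosome 8 (minus strand). Its means were 1.38, 7.48 and 4.22 in the same order of groups. With 5.42-fold between the Scd2f/f groups and no pseudocount, Cyba had a quotient close to that of Cybb, whereas that of Nox4 was below 1. With a pseudocount of 1 the log2 quotient of Cyba changed from 2.44 to 1.83. That of Cybb changed from 2.61 to 2.40.

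The cytosolic subunits were likewise higher in treated Scd2f/f TAL. Ncf1 spans 134220053 to 134229626 on chromosome 5 (minus strand), and its authors' means were 1.35, 4.51 and 3.72. Ncf4, spanning 78244801 to 78262581 on chromosome 15 (plus strand), had means of 0.286, 1.37 and 0.942. With a pseudocount of 1 the log2 quotient of Ncf4 between the Scd2f/f groups changed from 2.26 to 0.88. Hvcn1 spans 122206804 to 122242298 on chromosome 5 (plus strand), and its means were 0.577, 1.05 and 0.772. By the GENCODE M21 annotation, 1574 bases of Hvcn1 exons are shared with exons of Tctn1 on the other strand, and the library kit does not mark strand, so reads from these bases cannot be told apart. Tctn1 itself had means of 0.811, 1.36 and 1.40, without the lower value in Scd2f/f;CC that Hvcn1 had. No exon of the other 5 genes is shared with another annotated gene.

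Nox4, spanning 87246096 to 87398711 on chromosome 7 (plus strand), behaved differently from the rest. Its authors' means of 33.8, 30.2 and 39.4 spanned a narrow range, and the highest was that of the treated Scd2f/f;CC TAL. The log2 quotient of Nox4 between the Scd2f/f groups was -0.16 with the authors' scaling and 0.16 with equal sums, so its direction in treated Scd2f/f TAL depends on the scaling. Its log2 quotient was higher than that of 31.2% of the genes that passed the filter. The difference between Nox4 and the phagocyte genes was not tested, since it rests on group means.

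Sequence upstream of these genes is given for the pair that differed most, Cybb with the highest quotient and Nox4 with a quotient near 1. Windows of 300 bases, from 250 before to 50 after the annotated start, come from RefSeq on GRCm38.p6 and were found for 4 of the 6 genes, Cybb, Cyba, Ncf1 and Nox4. They were searched on both strands for the letters GAGGAA, the core of sites of the myeloid factor PU.1, for a pair of TTTC separated by any 2 bases, read by interferon regulatory factors, and for CAGACA, an element of SMAD proteins. These motifs occurred in 28.3%, 3.44% and 21% of 32851 windows of the same length. Capitals mark the matches in the windows chrX:9469275-9469574 (minus strand) and chr7:87246399-87246698 (plus strand), printed 5′ to 3′.
Cybb: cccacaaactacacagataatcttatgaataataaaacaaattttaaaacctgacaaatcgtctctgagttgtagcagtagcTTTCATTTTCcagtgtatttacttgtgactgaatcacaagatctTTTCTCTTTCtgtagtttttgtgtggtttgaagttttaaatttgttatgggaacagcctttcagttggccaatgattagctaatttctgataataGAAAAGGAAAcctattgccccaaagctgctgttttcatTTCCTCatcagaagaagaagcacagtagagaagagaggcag
Nox4: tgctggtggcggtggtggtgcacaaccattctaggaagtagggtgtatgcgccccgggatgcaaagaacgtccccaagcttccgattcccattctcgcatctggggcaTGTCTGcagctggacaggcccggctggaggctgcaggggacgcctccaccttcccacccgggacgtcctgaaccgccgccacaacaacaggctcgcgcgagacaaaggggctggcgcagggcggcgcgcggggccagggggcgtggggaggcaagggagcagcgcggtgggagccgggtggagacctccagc
The Cybb window held 3 matches to the interferon regulatory factor pair, ending 158, 114 and 19 bases before the start, and 1 match to the PU.1 core at bases 260 to 265 of the window, past the start. The Nox4 window held 1 match to the SMAD element, ending 136 bases before the start, and no match to the other motifs. The Ncf1 window held 1 match to the interferon regulatory factor pair, and the Cyba window held none of the 3 motifs. The gene models in the deposited table begin further upstream than these starts for Cybb and Nox4. No motif overlapped another in these windows, and a match is a description of letters, not of binding.

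Apart from shares of undivided sums, levels were compared between genes only after division by the exon length in GENCODE M21. This length is 4.75 kb for Cybb, 3.95 kb for Nox4 and 0.744 kb for Cyba. The authors counted reads on Gencode M3, so the lengths come from another annotation than the counts. The order of genes per kb depends on these lengths. Before division, Cyba had a mean of 7.48 and Nox4 30.2 in treated Scd2f/f TAL. In untreated Scd2f/f liver, Nox4 had the highest level at 8.56 per kb, followed by Cyba at 1.85, Cybb at 1.08, Ncf1 at 0.468, Ncf4 at 0.195 and Hvcn1 at 0.192. The last 2 values are close, and without a spread between mice no order of neighbours was tested. In treated Scd2f/f TAL, Cyba led at 10.1 per kb, with Nox4 at 7.65 and Cybb at 6.57. In treated Scd2f/f;CC TAL, Nox4 led again at 9.98 per kb, with Cyba at 5.67 and Cybb at 4.44. Ncf1, Ncf4 and Hvcn1 kept the lower places in every group. The level of Cybb per kb was 0.126 of that of Nox4 in untreated Scd2f/f liver, 0.858 in treated Scd2f/f TAL and 0.445 in treated Scd2f/f;CC TAL. Between the membrane partners Cybb and Cyba, the same quotient was 0.580, 0.653 and 0.783.

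**Figure D2:**
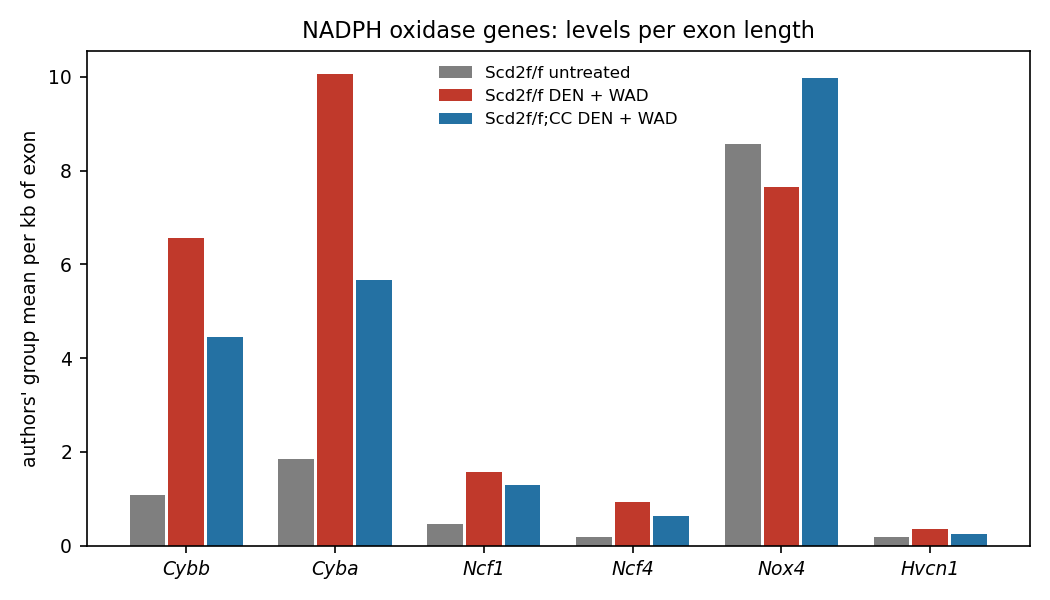
Authors' group mean divided by exon length in kb (linear axis from 0) for each gene and group, with bars for untreated Scd2f/f liver (grey), treated Scd2f/f TAL (red) and treated Scd2f/f;CC TAL (blue), and no error bars. Nox4 was the highest bar in untreated liver at 8.56, and Cyba in treated Scd2f/f TAL at 10.1.

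The second comparison, treated Scd2f/f;CC against treated Scd2f/f TAL, addresses the loss of Scd2 in Col1a1-expressing cells, and it shares the treated Scd2f/f group with the first. The phagocyte oxidase genes and Hvcn1 had lower means in Scd2f/f;CC, by 1.77-fold for Cyba, 1.48-fold for Cybb, 1.45-fold for Ncf4, 1.36-fold for Hvcn1 and 1.21-fold for Ncf1. Nox4 was 1.30-fold higher. None of the 6 genes reached 2-fold, and 5 passed the filter, where 0.642% of 11847 genes were at least 2-fold higher and 1.65% at least 2-fold lower. Without the filter these shares were 1.82% and 4.07%. At a limit of 1.5-fold, Cyba alone among these genes was called lower and none higher, where 5.17% of the genes that passed were lower and 2.32% higher. The log2 quotient of Cyba was -0.83, below all but 2.52% of these genes. For Cybb it was -0.56, with 5.44% of genes below it, and for Ncf1 it was -0.28, with 14.3% below it. The log2 quotient of Nox4 was 0.38, higher than that of 94.1% of these genes. The median log2 quotient of the 6 genes was -0.49, against 0.0041 over all genes that passed. Over all genes, 76 were higher and 195 lower by at least 2-fold, or 47 and 294 with equal sums, which shifts every log2 quotient by -0.17 and left the sign of all 6 genes as it was.

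The third comparison sets treated Scd2f/f;CC TAL against untreated Scd2f/f liver and so combines genotype and treatment. Cybb was 4.13-fold higher, Ncf4 3.29-fold, Cyba 3.06-fold and Ncf1 2.76-fold, while Hvcn1 was 1.34-fold and Nox4 1.17-fold higher. Of the 4 genes that passed the filter, 3 were at least 2-fold higher, where 4.2% of 11696 genes were higher and 2.66% lower. Without the filter, 4 of the 6 were, where 6.41% of all genes were higher and 4.64% lower. With a pseudocount of 1 the log2 quotient of Ncf4, which is 1 of these 4, changed from 1.72 to 0.59, under 2-fold. At 1.5-fold the count with the filter was also 3, where 10.4% of the genes that passed were higher and 7.91% lower. With a mean of at least 5, Cybb was again the 1 gene 2-fold higher, where 2.16% of 7761 genes were. Over all genes 491 were higher and 311 lower, or 641 and 225 with equal sums, which adds 0.15 to the log2 quotient. The means of Cybb, Cyba, Ncf1, Ncf4 and Hvcn1 in Scd2f/f;CC thus lay between those of the Scd2f/f groups, and that of Nox4 lay above both.

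**Figure D3:**
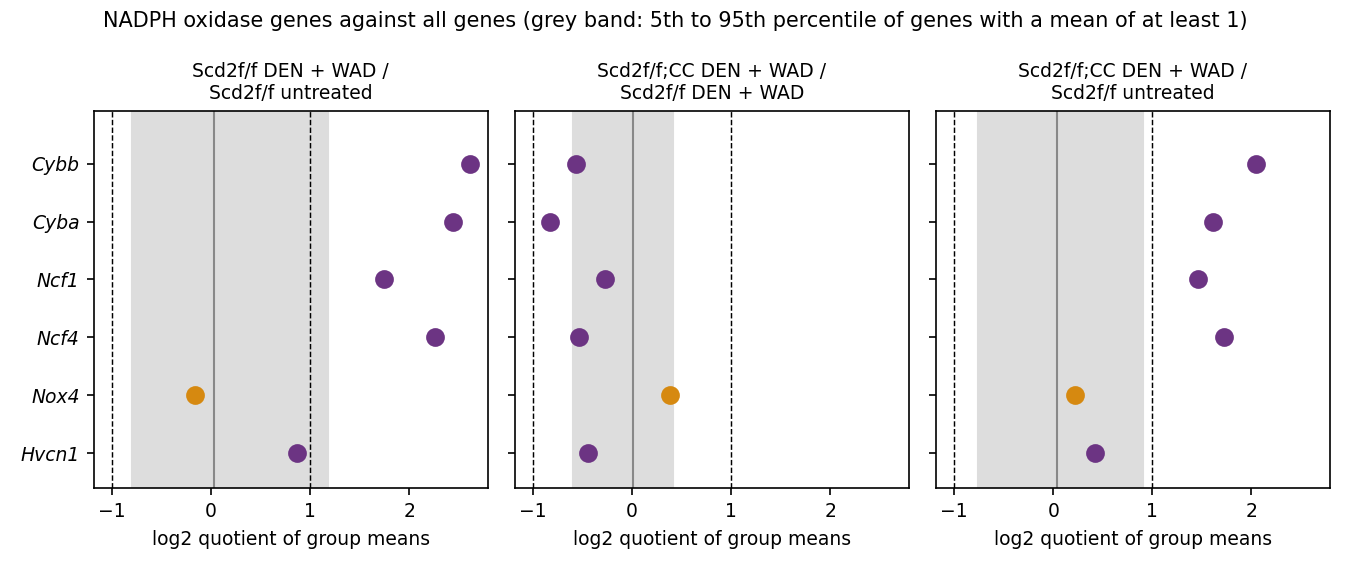
Log2 quotient of the authors' group means for each gene (purple dots, Nox4 in orange) in the 3 comparisons, with the 5th to 95th percentile of all genes with a mean of at least 1 as a grey band, their median as a grey line and dashed lines at 2-fold. Cybb, Cyba, Ncf1 and Ncf4 lie right of the band in both comparisons with untreated liver, and of the 6 genes only Cyba lies left of it between the treated groups.

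Macrophage markers were higher in the same groups as the phagocyte oxidase genes. Counts in gene lists are given without the filter on the mean, to be read against the shares of all genes without it. All 12 macrophage markers on the list were at least 2-fold higher in treated than in untreated Scd2f/f liver, with a median log2 quotient of 1.88. Their summed means were 117 in untreated Scd2f/f liver, 449 in treated Scd2f/f TAL and 349 in treated Scd2f/f;CC TAL. The most abundant per kb of exon was Lyz2, which encodes a lysozyme, at 18.9, 81.3 and 48.4 per kb. The largest share of the undivided sum came from Mpeg1, which encodes a pore-forming protein of macrophages, with means of 30.3, 137 and 101. None of the defining markers is listed at 0, and the lowest of the list per kb, Itgam, had means of 0.621, 1.59 and 1.26. Relative to the summed macrophage markers, Cybb stood at 4.38% in untreated Scd2f/f liver, 6.95% in treated Scd2f/f TAL and 6.04% in treated Scd2f/f;CC TAL. Ncf1 stood at 1.16%, 1.004% and 1.07%, and Cyba at 1.18%, 1.67% and 1.21%. Nox4 stood at 29.0%, 6.73% and 11.3%. In bulk tissue, fewer cells of a type and less RNA per cell cannot be told apart, and the part of macrophages in the result was not tested. Between the treated groups, 10 of the 12 macrophage markers were lower in Scd2f/f;CC, with a median log2 quotient of -0.39. Clec4f and Timd4 were the exceptions, with log2 quotients of 0.01, which turns negative with equal sums, and 0.30. These are markers of resident Kupffer cells, as is Vsig4, which had means of 4.90, 17.2 and 14.1 and a log2 quotient of -0.29. Marco, a scavenger receptor of macrophages, had a log2 quotient of -0.45. Cd14, the co-receptor for lipopolysaccharide, had means of 0.862, 3.26 and 1.41.

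Markers of other cells that can carry the phagocyte oxidase were also higher in treated Scd2f/f TAL. All 9 markers of monocytes and dendritic cells had higher means in treated than in untreated Scd2f/f liver, 8 of them by at least 2-fold. Of the 5 that passed the filter 4 were, but Ccr2, Itgax and Cx3cr1 passed it through their treated means alone. These were 3.78, 3.66 and 2.54, against 0.564, 0.235 and 0.256 in untreated Scd2f/f liver. The summed means of the 9 markers were 4.55, 18.0 and 9.86. Their median log2 quotient was 1.73 for DEN and WAD and -0.78 between the treated groups. The most abundant per kb was Plac8, with means of 1.81, 4.54 and 3.59. Of 10 neutrophil markers 5 were analysed here, S100a8, S100a9, Csf3r, Cxcr2 and Ltf, while Ly6g, Elane, Mpo, Retnlg and Camp were not analysed here. The summed neutrophil markers were 1.22, 4.84 and 3.76, and the most abundant per kb, S100a9, had means of 0.355, 1.94 and 1.59. The 5 neutrophil markers had median log2 quotients of 1.75 and -0.32 in the first and second comparison. For B cells, in which Hvcn1 is also known to act, 6 of 8 markers were analysed, with summed means of 1.48, 3.47 and 3.12. Their median log2 quotient was 1.001 for DEN and WAD and 0.13 between the treated groups, which becomes -0.04 with equal sums. Cd79b, the most abundant per kb, had means of 0.304, 0.540 and 0.607, and Cd22 had means of 0.368, 1.43 and 0.885. The part of these cells in the values of the oxidase genes was not tested.

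**Figure D4:**
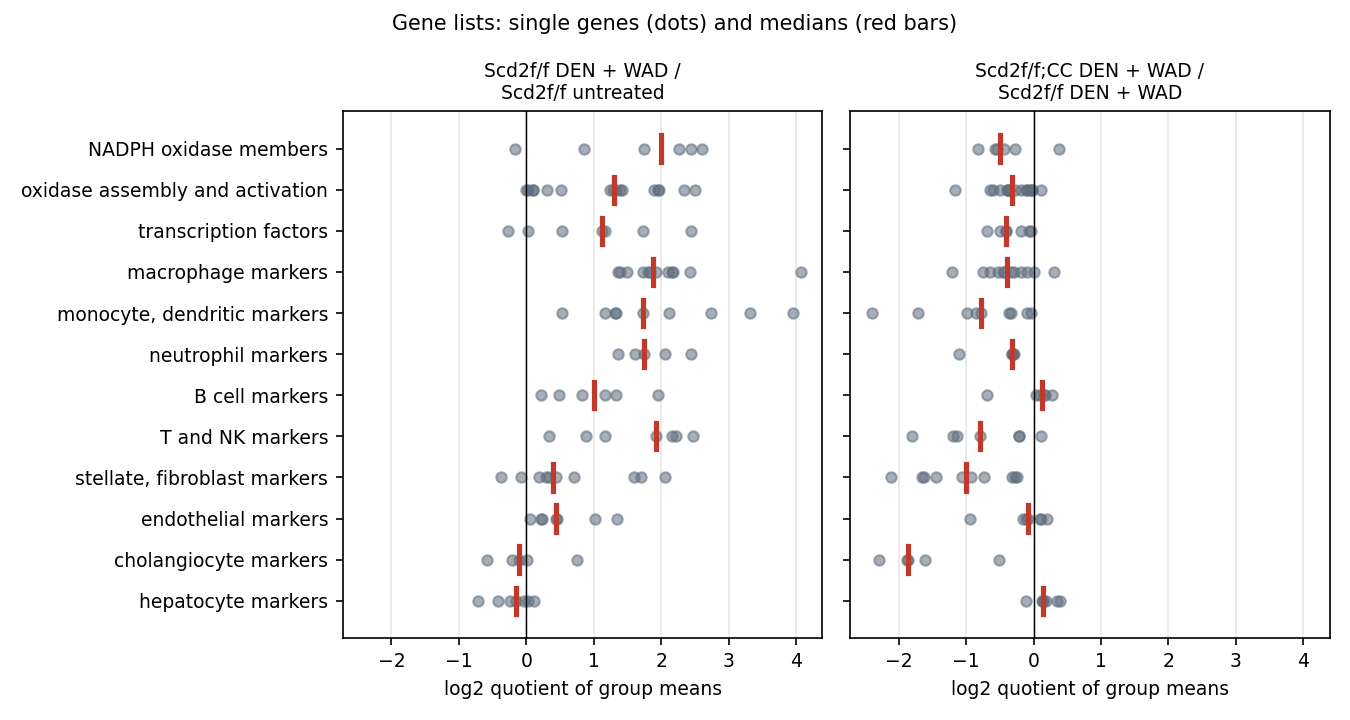
Log2 quotients of the authors' group means for single genes (dots) and their median (red bar) in gene lists, for treated against untreated Scd2f/f liver (left) and treated Scd2f/f;CC against treated Scd2f/f TAL (right). On the left, all 12 macrophage markers lie above 0, as do 5 of the 6 NADPH oxidase genes.

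Of 16 genes that assemble, activate or limit the oxidase, 10 were at least 2-fold higher in treated than in untreated Scd2f/f liver. None was 2-fold lower, and the median log2 quotient was 1.31. Without the filter, 9.37% of all genes were at least 2-fold higher and 4.69% lower. Rac2, the GTPase of blood cells, had means of 0.910, 5.16 and 4.27, and its widely expressed relative Rac1 had means of 62.6, 67.2 and 58.9. Vav1, which exchanges the nucleotide on Rac, had means of 1.06, 3.95 and 3.05. The exchange factor Dock2 had means of 2.26, 8.85 and 6.26. Prkcd, a protein kinase C that phosphorylates p47phox, had means of 3.47, 8.76 and 6.72. Nrros, which limits the phagocyte oxidase by removing NOX2, also had higher means in the treated groups, at 1.72, 4.52 and 3.44. Poldip2, described as a partner of NOX4 with p22phox, had means of 37.2, 37.0 and 34.7. Between the treated groups, 1 of the 16 genes was 2-fold lower in Scd2f/f;CC, the scaffold gene Sh3pxd2b, and none was 2-fold higher. The shares of all genes there without the filter were 4.07% lower and 1.82% higher. Sh3pxd2b had means of 0.582, 2.95 and 1.32, and so was 5.07-fold higher in treated than in untreated Scd2f/f liver. The median log2 quotient of the 16 genes between the treated groups was -0.32.

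The list of other oxidase subunits gave values, among others, for BC017643, an older name of Cybc1, whose product is a chaperone of NOX2, and for Noxo1. BC017643 had means of 4.18, 4.62 and 4.69, and so lacked the difference between untreated and treated liver that Cybb had. Noxo1, an organizer for another oxidase, had means of 0.272, 0.320 and 0.364. Nox1, Nox3, Noxa1 and the Duox and Duoxa genes on that list were not analysed here. The median log2 quotients of the list were 0.23 and 0.02 in the first and second comparison, and the latter becomes -0.15 with equal sums.

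Of 7 transcription factors known to act on phagocyte oxidase genes, 4 were at least 2-fold higher in treated than in untreated Scd2f/f liver. Their median log2 quotient was 1.12, and 9.37% of all genes were at least 2-fold higher without the filter. Spi1, which encodes PU.1, had means of 0.976, 5.30 and 3.76. Irf8, an interferon regulatory factor of myeloid cells, had means of 2.17, 7.17 and 4.44. Irf1, another factor of that family, had means of 9.07, 20.3 and 15.3. Cebpa, which hepatocytes also express, had means of 140, 142 and 136. The median log2 quotient of the 7 genes between the treated groups was -0.41, with none past 2-fold in either direction. Markers of stellate cells and fibroblasts, which also express Nox4, had summed means of 157, 258 and 157. Their median log2 quotient for DEN and WAD was 0.39. The collagen genes Col1a1, Col1a2 and Col3a1 were the 3 at least 2-fold higher. Des, from 4.25 to 3.29, and Acta2, from 1.27 to 1.20, were lower in treated than in untreated Scd2f/f liver. All 10 markers were lower in Scd2f/f;CC than in Scd2f/f TAL, with a median log2 quotient of -0.996. The 7 hepatocyte markers had summed means of 32511, 29512 and 33203, lowest in the same group as Nox4. The largest part of this undivided sum was Alb, with means of 21300, 20900 and 22700. Not every marker was lowest in that group: Ttr and Fah were lowest in untreated liver and Hnf4a in Scd2f/f;CC. The median log2 quotient of the 7 markers was -0.15 for DEN and WAD and 0.14 between the treated groups. With equal sums these become 0.16 and -0.02. The part of either cell type in the values of Nox4 was not tested. Of 9 genes of the TGF-beta axis, a known inducer of Nox4 in fibroblasts, 2 were at least 2-fold higher for DEN and WAD. None was 2-fold lower, where 9.37% of all genes were higher and 4.69% lower without the filter. Tgfb1, which encodes the ligand, had means of 3.14, 7.53 and 5.61. The median log2 quotient of the axis was 0.11 for DEN and WAD and -0.34 between the treated groups. Tgfb2 and Tgfb3, both too low for the filter, were at least 2-fold lower in Scd2f/f;CC than in treated Scd2f/f TAL. Without the filter, 4.07% of all genes were lower by that much between the treated groups. Nox4 was 1.30-fold higher there, and the part of the TGF-beta axis in its values was not tested.

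The enzymes that remove superoxide and peroxide had quotients near 1 for most. Of 12 such genes, only Sod3, which encodes the extracellular superoxide dismutase, was past 2-fold in treated against untreated Scd2f/f liver. Its means were 7.30, 16.3 and 11.5. In that comparison 9.37% of all genes were at least 2-fold higher without the filter. Cat, which encodes catalase, had means of 1170, 1530 and 1630, and Gpx1, a glutathione peroxidase, had means of 832, 1030 and 1010. The median log2 quotient of the 12 genes was -0.02 for DEN and WAD, or 0.30 with equal sums, and 0.03 between the treated groups, or -0.14 with equal sums. Among 7 genes that supply NADPH, G6pdx, the first enzyme of the pentose phosphate pathway, had means of 1.20, 4.08 and 2.83 and was the 1 past 2-fold, and the median log2 quotients were 0.23 and -0.26 in the first and second comparison. Of 12 other sources of oxidants 9 were analysed here, with median log2 quotients of 0.36 and 0.01, the latter being -0.16 with equal sums. Nos2, the inducible nitric oxide synthase, too low for the filter, was the 1 past 2-fold, with means of 0.0515, 1.03 and 0.193, the first of which is near the lowest mean of any gene in that group, 0.04.

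The genes most like each of 3 members were sought among 11008 coding genes whose average over the groups reached 1, by the distance between log2 group means after each gene's own average was removed. The distances describe 3 group means per gene and no test was made. Nearest to Cybb were Itgb2, the shared subunit of leukocyte integrins (distance 0.049), Clec4a3 and Clec12a, C-type lectins of myeloid cells (0.055 and 0.060), Lpcat2 (0.062), and Aoah, which inactivates lipopolysaccharide (0.066). Itgb2 had means of 2.36, 14.1 and 9.29. For Nox4 the nearest were Zfp759, N6amt1, Gpr17, Trim14 and Cps1, at distances from 0.0021 to 0.0096. Cps1, the first enzyme of the urea cycle in hepatocytes, had means of 2660, 2390 and 3130. For Hvcn1 the nearest were Hic1, Kifap3, Rab3il1, Mlkl and Plekha1, at distances from 0.014 to 0.034, and Mlkl, the executor of necroptosis, had means of 2.86, 5.17 and 3.75.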

How the data were processed

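Polyadenylated RNA of 9 samples in 3 groups was sequenced by the authors from libraries made with a TruSeq v2 kit. The submitters' processing notes name STAR 2.6.1, Partek 6 and mm10, and the paper's methods state that the authors used the E/M quantification of Partek with Gencode M3 and normalized read counts to the upper quartile. The deposited signal analysed is the least-squares mean of each group, given for 16755 genes. The authors' p-values, FDR, ratios and fold changes in the same table were not used. Depth is unknown.

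Quotients of group means were computed without a pseudocount, and a gene counted as called at 2-fold if its average over both groups reached 1. A gene could pass this filter through its higher group alone. Counts in gene lists were made without this filter. No statistical test was run on the group means. Genes were named as follows: the 6 oxidase genes, 17 gene lists (which include the 6), and the 5 nearest genes of Cybb, Nox4 and Hvcn1. Single list genes were picked for the text after their values were seen. Some list genes are not reported here. The members and lists were chosen with earlier results of these data known. All 6 members and 16129 of the 16755 genes were matched to GENCODE M21 (GRCm38) for exon lengths. A comparison of protein sequences and a spread from totals or maxima over samples were planned and not analysed here. Alternatives were a limit of 1.5-fold, pseudocounts of 0.1 and 1, other filters, centring, equal sums and protein-coding genes alone. The counting step was tested on simulated data. Python 3.11.15, NumPy 2.4.6, pandas 2.3.3 and Matplotlib 3.10.9 were used.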

Additional observations from a re-analysis of the deposited data

How the results depend on the processing

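Only group means were analysed, so spread and depth limit every value to a description, and low genes such as Ncf4 and Hvcn1 most. No paired analysis was possible because the values are group means that carry no replicate numbers, and leaving out replicates was not run for the same reason. In what follows, counts are given as higher and lower, for DEN and WAD in Scd2f/f, then Scd2f/f;CC against Scd2f/f when treated, then treated Scd2f/f;CC against untreated Scd2f/f. Over all genes, a limit of 1.5-fold gave 1505 and 1041, 275 and 613, and 1215 and 925. A pseudocount of 1 gave 457 and 230, 38 and 84, and 261 and 204. No filter gave 1570 and 785, 305 and 682, and 1074 and 777. A mean of at least 5 gave 265 and 201, 33 and 58, and 168 and 169. Equal sums gave 1231 and 218 in the first comparison and 47 and 294 in the second.

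Of the oxidase genes, 1 was called higher in the first comparison and 1 when treated Scd2f/f;CC was set against untreated Scd2f/f, at a mean of at least 5, where 3.38% and 2.16% of genes were, and 1 lower in the second at 1.5-fold. With a pseudocount of 1, their median log2 quotient was 1.06 and 0.80 in these comparisons. The same setting gave 0.50 and 0.25 for monocyte and dendritic markers, 0.63 and 0.49 for neutrophil markers and 0.26 and 0.30 for B cell markers. T and NK cell markers then had medians of 0.39, -0.16 and 0.17 in the 3 comparisons, and cholangiocyte markers -0.54 and -0.60 in the last 2 of them. Keeping genes with a mean of at least 1 gave first-comparison medians of 1.14 for other oxidase subunits, 2.74 for monocyte and dendritic markers and 2.45 for neutrophil markers, and -0.69 in the second for the 1 B cell marker left. The cause was not tested. Across settings the log2 quotient for DEN and WAD ranged from 2.40 to 2.93 for Cybb and from -0.19 to 0.16 for Nox4. Of the other values compared for counts and list medians, 297 stayed within 1.5 times of the reported one.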

Other observations

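Markers of T and NK cells were low in all groups, with summed means of 1.57 in untreated Scd2f/f liver, 4.96 in treated Scd2f/f TAL and 2.90 in treated Scd2f/f;CC TAL over the 7 of 8 genes analysed. Their median log2 quotient was 1.92 for DEN and WAD and -0.80 between the treated groups. Cd8a, the co-receptor of cytotoxic T cells, had means of 0.235, 1.05 and 0.302, whereas Cd4 had 0.442, 0.817 and 0.883. Among monocyte and dendritic cell markers, Itgax had means of 0.235, 3.66 and 1.12, and Cx3cr1, a chemokine receptor, had 0.256, 2.54 and 0.482.

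Of 5 cholangiocyte markers, 4 were at least 2-fold lower in treated Scd2f/f;CC than in treated Scd2f/f TAL without a filter on the mean, where 4.07% of all genes were. Of the 3 with a mean of at least 1 over these groups 2 were, where 1.65% of such genes were. The summed means of the 5 were 58.7, 53.1 and 19.1. Spp1, which encodes osteopontin, had means of 52.3, 45.1 and 14.8, and the biliary keratin gene Krt19 had 0.746, 0.751 and 0.204. The 7 endothelial markers had summed means of 130, 168 and 171, with Stab2, a scavenger receptor of sinusoids, at 36.9, 42.8 and 45.9. Between the treated groups 4 of the 7 were lower in Scd2f/f;CC, among them Lyve1, a receptor of sinusoidal and lymphatic endothelium, with means of 2.6, 6.6 and 3.44. All 7 together had a median log2 quotient of 0.44 for DEN and WAD and -0.09 between the treated groups.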
